A study of Mus musculus with 32 samples.

Results

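B-cell acute lymphoblastic leukemia (B-ALL) of Pax5+/-;Myd88+/- mice was compared with cultured B-cell precursors (proB cells) of healthy mice that carry the same alleles. The members were chosen by sample title and comprised 10 of the 32 arrays of the series: 6 of leukemic bone marrow and 4 of B220+ bone marrow cells. Across them 22327 autosomal probesets of the 28944 on the array were read, which leaves out sex-linked probesets and those with no chromosome in the annotation. All 10 mice had 1 targeted Pax5 allele and 1 targeted Myd88 allele (B6.129P2(SJL)-Myd88tm1.1Defr) on a mixed C57BL/6×CBA background, so neither allele differed between the groups. The labels give every animal the same housing, specific pathogen-free up to 2 months of age and then a conventional facility with common pathogens, and no other treatment. Since the methods name young pups as the donors of the cultures, that move cannot describe them, and whether any donor met those pathogens is not given in the sources used here. Leukemic samples were bone marrow of diseased mice, for which no sort is named. The healthy samples were enriched for B220 on magnetic columns, and per the study's methods they had been grown with IL7 on ST2 stromal feeder cells. Transformation, the age of the mouse, culture against fresh marrow and the enrichment therefore cannot be told apart in this comparison alone. The same contrast was set beside 2 others that share none of these arrays: 6 leukemias against 4 cultures of Pax5+/- mice with intact Myd88, and 4 samples of proB and preB cells sorted from wild type (WT) marrow against 4 WT cultures.

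B-cell precursors in the bone marrow commit to the lineage under Pax5, a transcription factor that turns on B-cell genes and represses genes of other lineages, together with Ebf1 and Tcf3. They rearrange their immunoglobulin genes with the Rag recombinase, display a pre-B cell receptor that contains surrogate light chain, and depend on IL7 for growth. Loss of PAX5 function is a frequent lesion of human B-ALL. Myd88 is the adaptor through which most Toll-like receptors and the IL1 receptor activate NF-kB.

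Values are log2 intensities, on which a difference of 1 is a doubling. A probeset was called when its adjusted p from limma was below 0.05 and its means differed more than 2-fold. In all, 406 of the 22327 autosomal probesets were called (1.82%), 234 higher in the leukemias (1.05%) and 172 lower (0.77%). Counted by gene, with 1 probeset for each of 19166 genes, 196 were called higher (1.02%) and 150 lower (0.783%). These 2 shares of all genes are the background for the calls in each gene list below. Among the called probesets 71 rose more than 4-fold and 34 fell more than 4-fold. In 392 of the 406 (96.6%) the leukemias and the cultures did not overlap, against 10.4% of all autosomal probesets. The median difference over all autosomal genes was -0.05. Without the adjustment, 670 probesets met the fold and a p below 0.05.

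The 6 leukemias resembled each other less than the 4 cultures did. Pearson's r between replicate arrays across probesets ran from 0.9668 to 0.9905 for the leukemias and from 0.9914 to 0.9967 for the cultures. The SD of a probeset was larger among the leukemias for 70.8% of autosomal probesets, and it passed 1 for 403 probesets among the leukemias and for 3 among the cultures. Part of the probesets set cultures 1 and 3 apart from cultures 2 and 4, called the culture pairs here. Both cultures 1 and 3 were more than 0.5 above both cultures 2 and 4 on 106 autosomal probesets. On 59 they were more than 0.5 below. Other splits of the 4 cultures were not counted. Across all probesets the pairing was not clear in these 4 cultures: r was 0.9967 for cultures 1 and 3, 0.9961 for 3 and 4 and 0.9949 for 2 and 4. The WT cultures paired clearly by the same numbers across all probesets (r of 0.9982 and 0.9979 within the pairs), and the Pax5+/- cultures less sharply. With the culture pairs averaged and counted as 2 samples, 140 probesets were called in place of 406. From the sex-linked probesets all 4 cultures came from females and the leukemias from 3 males (replicates 1, 3 and 5) and 3 females (replicates 2, 4 and 6); 409 probesets were called among the females alone.

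**Figure D1:**
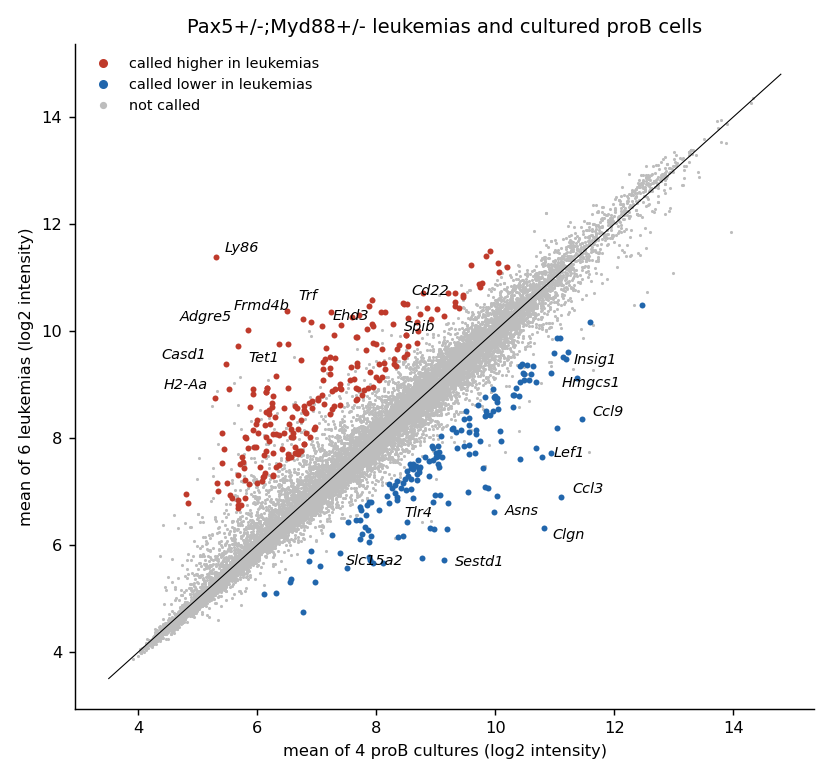
Mean log2 intensity of each autosomal probeset that names 1 gene in the 4 proB cultures (x axis) and in the 6 leukemias (y axis), with called probesets in red (higher in leukemias) and blue (lower), uncalled ones in grey and the line of equal level in black. Ly86 stands farthest above the line, with a log2 difference of 6.09, and Clgn farthest below, with -4.50.

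The largest rise was that of Ly86, which encodes MD-1, the partner of the B-cell Toll-like receptor homolog CD180. Ly86 was at 10.76 to 11.88 in the leukemias, with a median of 11.31, and at 5.17, 5.16, 5.37 and 5.49 in the cultures. All 6 leukemias lay far above every culture, a 68.0-fold difference (log2 6.09 ± 0.20 SE, limma adjusted p = 2.05e-07). Cd180 itself had a log2 difference of 0.02 with overlapping groups (adjusted p = 0.974).

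Adgre5 (CD97, an adhesion receptor of leukocytes) was at 8.81 to 11.15 in the leukemias, with a median of 10.01, and at 5.67 to 5.94 in the cultures. The log2 difference was 4.17 ± 0.37 SE (adjusted p = 0.000232). Casd1, the enzyme that O-acetylates sialic acid, was tight within both groups: the leukemias lay between 9.22 and 9.65 and the cultures between 5.27 and 5.59. Its rise was 15-fold (log2 3.90 ± 0.10 SE, adjusted p = 2.03e-08). Frmd4b, a cytoskeletal scaffold gene, was at 9.43 to 10.91 against 6.64 to 6.89 (log2 3.48 ± 0.23 SE). In these 4 genes no leukemia reached the range of the cultures.

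Trf (transferrin, the iron carrier) rose 14.6-fold, Lifr (the receptor of leukemia inhibitory factor) 9.66-fold, Tet1 (an enzyme that oxidises methylated cytosine) 9.43-fold on its strongest probeset and Ehd3 (an endocytic ATPase) 8.07-fold. Tet1 was called higher on each of its 3 probesets, with log2 differences of 2.28, 2.42 and 3.24. Jchain, the joining chain of polymeric immunoglobulin, was graded among the leukemias. It was at 12.67, 11.26, 9.44, 7.84, 10.58 and 6.53 in leukemias 1 to 6 and at 5.47 to 5.99 in the cultures. Its log2 difference of 4.04 therefore carried a wide SE of 1.03 (adjusted p = 0.0479), and the call was lost when leukemia 1, 2, 3 or 5 or any culture was left out.

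Ms4a6c and Rnase12 also rose, by log2 3.47 and 3.40. Rnase12 was at 11.08, 6.85, 12.19, 9.06, 10.61 and 8.78 in leukemias 1 to 6 and at 6.07 to 6.52 in the cultures. Leukemia 2 lay just above the cultures, and the adjusted p of Rnase12 was 0.0486. Leaving out leukemia 1, 3, 4 or 5 or any culture ended that call.

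Clgn, a chaperone related to calnexin, showed the largest fall. It was at 6.13 to 6.72 in the leukemias, with a median of 6.25, and at 10.71, 10.79, 10.85 and 10.89 in the cultures. The groups were 22.7-fold apart with little spread in either (log2 -4.50 ± 0.11 SE, adjusted p = 2.03e-08). The chemokine genes Ccl3 and Ccl9 fell as well. Ccl3 was at 6.36 to 7.58 in the leukemias and at 10.64 to 11.58 in the cultures, 18.5-fold lower (adjusted p = 2.88e-05). Ccl9 was at 7.30 to 9.45 against 11.11 to 11.73, 8.58-fold lower (adjusted p = 0.00319). These were the only called members among 25 chemokine and chemokine receptor genes.

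Sestd1 fell 10.7-fold, Slc15a2 (a peptide transporter) 7.97-fold and Vat1l 7.32-fold, with each leukemia below each culture. Kynu (kynureninase, of tryptophan breakdown) fell 9.22-fold. It was at 10.20 and 10.21 in cultures 1 and 3 and at 11.66 and 11.65 in cultures 2 and 4, so the culture pairs differed, while the leukemias spread from 6.67 to 9.13. Lilr4b, an inhibitory receptor of myeloid cells, was at 5.96 to 9.90 in the leukemias and at 10.28 to 11.12 in the cultures (adjusted p = 0.0296). Its call was lost without leukemia 1 or 5 or any culture (adjusted p from 0.057 to 0.1).

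Asns (asparagine synthetase) was at 6.38, 7.62, 6.19, 6.47, 6.53 and 6.54 in leukemias 1 to 6 and at 10.43, 9.09, 10.77 and 9.59 in cultures 1 to 4. It fell 10.2-fold (log2 -3.35 ± 0.36 SE, adjusted p = 0.000606), with leukemia 2 the highest of the leukemias and cultures 2 and 4 the lowest of the cultures. Of 27 genes of the amino acid response and the unfolded protein response, 2 were called, Asns and Trib3, a pseudokinase induced in that response. Both were lower in the leukemias, against 0.783% of all genes called lower. Trib3 was at 7.25 to 7.66 against 8.49 to 8.70 (log2 -1.11 ± 0.09 SE, adjusted p = 9.31e-05). The median of the list was -0.09, close to the -0.05 of all genes.

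Genes of cholesterol and fatty acid synthesis were lower in the leukemias throughout. Of 23 autosomal members of that list, 9 were called lower and none higher, against 0.783% of all genes called lower. All 23 had a difference below 0, with a median of -0.98, and 16 had an adjusted p below 0.05. The groups did not overlap in 16 of the 23, against 10.4% of all autosomal probesets. The mean of the list lay below the cultures in every leukemia, by -0.98, -1.47, -1.20, -1.10, -0.57 and -1.31 in leukemias 1 to 6, while the 4 cultures lay within 0.17 of their own mean.

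The called members spanned the pathway. Hmgcs1 makes the substrate of HMG-CoA reductase. It was at 9.70, 8.31, 8.84, 9.54, 9.87 and 9.04 in leukemias 1 to 6 and at 11.14, 10.75, 11.14 and 10.75 in the cultures (log2 -1.73 ± 0.28 SE, adjusted p = 0.00675). Every leukemia was below every culture, with leukemia 2 lowest. Idi1, Fdft1, Lss and Cyp51, which act in that order from isoprenoid to sterol, all fell, with log2 differences of -1.48, -1.40, -1.48 and -1.37 and adjusted p between 0.00152 and 0.0291. Without any 1 culture the calls of Idi1 and Cyp51 were lost (adjusted p up to 0.0997 and 0.0844). Stard4, a cholesterol carrier of the cytosol, was at 7.99 to 8.74 against 9.88 to 10.08 (log2 -1.47 ± 0.15 SE, adjusted p = 0.000548).

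Insig1, which holds the sterol sensor in the endoplasmic reticulum, was at 9.14 to 9.97 in the leukemias and at 10.86 to 11.34 in the cultures (log2 -1.62 ± 0.18 SE, adjusted p = 0.000724). The stearoyl-CoA desaturases changed most. Scd1 was at 5.38, 9.49, 6.31, 6.22, 7.18 and 6.90 in leukemias 1 to 6 and at 9.67 to 10.36 in the cultures, so leukemia 2 was close to the cultures while the others were far below (log2 -3.11 ± 0.65 SE, adjusted p = 0.0222). That call was lost without any 1 culture (adjusted p from 0.0581 to 0.0769). Scd2 was at 9.48 to 11.37 against 12.25 to 12.69 (log2 -1.98 ± 0.35 SE, adjusted p = 0.0102). Of the transcription factors of the pathway, Srebf1 had a log2 difference of -0.30 (adjusted p = 0.0329) and Srebf2 of -0.65 (adjusted p = 0.0641), neither past 2-fold.

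The number of members called depended on the samples in the fit. It was 14 without leukemia 5, which had the smallest shift, 6 or 7 without any 1 culture, 15 among females alone and 3 with the culture pairs averaged. In the Pax5+/- comparison 9 of the 23 were called lower, against 1.73% of all genes, and in the WT comparison 12, against 3.02%, with medians of -0.66 and -1.26. By its median the list was thus below the IL7 cultures in fresh marrow cells of all 3 genotypes, leukemic or not. The test of the difference from the WT comparison did not pass for Hmgcs1 (difference of the log2 differences 0.29, adjusted p = 0.58), Scd1 (-1.59, adjusted p = 0.157), Stard4 (0.13, adjusted p = 0.659) or Lss (0.04, adjusted p = 0.953). Insig1 fell further than in the WT comparison (-1.16, adjusted p = 0.00158) and Cyp51 less far (1.32, adjusted p = 0.0121). On another probeset, with a log2 difference of -1.53, Fdft1 fell further than in both comparisons (-0.30 in WT and -0.50 in Pax5+/-).

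**Figure D2:**
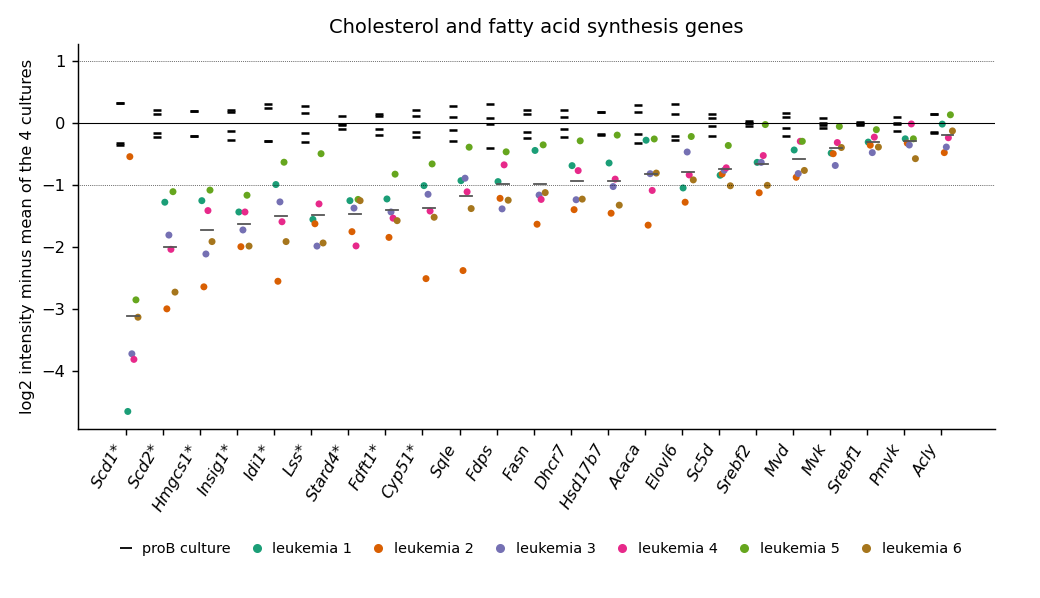
Log2 intensity of the 23 genes of cholesterol and fatty acid synthesis in each array, relative to the mean of the 4 cultures (black dashes, the cultures; coloured points, leukemias 1 to 6; grey bars, leukemia means; dotted lines, a 2-fold difference; asterisks, called genes). The leukemia means lie below 0 for all genes, from -3.11 for Scd1 to -0.18 for Acly.

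The promoters of 2 called members are shown because each holds the letters of a motif tied to lipid or growth control, and are taken from RefSeq with the build GRCm38.p6. That of Hmgcs1 (chr13:119690101-119690350, plus strand, the 250 bases upstream of the start) holds the sterol regulatory element TCACNCCAC, in capitals, 137 to 129 bases before the start. That of Insig1 (chr5:28071162-28071411, plus strand) holds the E-box CACGTG, in capitals, 101 to 96 bases before the start.
Hmgcs1: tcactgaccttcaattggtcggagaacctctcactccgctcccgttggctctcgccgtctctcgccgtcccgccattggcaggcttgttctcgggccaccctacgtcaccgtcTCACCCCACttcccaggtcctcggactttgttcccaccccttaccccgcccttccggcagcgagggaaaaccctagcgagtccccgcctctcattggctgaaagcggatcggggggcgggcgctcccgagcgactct
Insig1: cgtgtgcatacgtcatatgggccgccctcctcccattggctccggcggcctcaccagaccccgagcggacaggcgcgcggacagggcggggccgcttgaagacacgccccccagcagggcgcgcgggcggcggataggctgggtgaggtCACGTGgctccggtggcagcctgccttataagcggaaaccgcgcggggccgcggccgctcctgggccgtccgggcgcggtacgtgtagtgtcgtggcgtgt
Both strands of the same 250 bases were searched in 15008 autosomal genes. The sterol element was present in 1.01% of them, in 1.82% of the genes called lower and in 1 of 17 list members with a promoter (5.88%). The E-box was present in 7.03% of all genes, 6.36% of those called lower and 3 of the 17 list members (17.6%). A match of letters shows no binding, and no match says only that the letters are not in this window.

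MHC class II genes, which present peptides to T cells and come on as B cells mature, were higher in most leukemias. Of 14 members measured, 5 were called higher and none lower, against 1.02% of all genes called higher, and the median was 1.20. H2-Aa was at 8.98, 9.40, 9.72, 11.43, 7.68 and 6.28 in leukemias 1 to 6 and at 5.31 to 5.75 in the cultures (log2 3.40 ± 0.81 SE, adjusted p = 0.0365). H2-Ab1, which encodes the partner chain, was at 8.74, 8.74, 9.33, 10.64, 7.5 and 7.01 against 5.98 to 6.53 (log2 2.42 ± 0.60 SE, adjusted p = 0.042). Both were highest in leukemia 4 and lowest in leukemia 6, which still lay above the cultures.

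Cd74, the invariant chain that guides class II molecules, was at 11.16, 11, 10.65, 12.10, 10.01 and 7.27 in leukemias 1 to 6 and at 6.90 to 7.57 in the cultures. Leukemia 6 lay within the range of the cultures, and the log2 difference was 3.13 ± 0.76 SE (adjusted p = 0.0402). H2-Eb2 (log2 2.23, adjusted p = 0.0248) and Ctss, the protease that trims the invariant chain (log2 1.37, adjusted p = 0.0421), were the other called members. H2-Eb1 had a log2 difference of 1.41 (adjusted p = 0.074). Ciita, the master activator of these genes, was at 6.93 to 8.48 against 6.94 to 7.06 (log2 0.38, adjusted p = 0.415), with only leukemias 1, 2 and 4 above the cultures.

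These calls rested on few samples. The count of 5 became 8 without leukemia 6, 1 without leukemia 1, 2 or 3, 3 without leukemia 5 and 0 without any 1 culture, among females alone or with sex as a term. Genes that mark monocytes, granulocytes and dendritic cells, of which some also carry class II, moved with them: leukemia 4 was among the highest and leukemia 6 the lowest in class II genes and in the markers of monocytes, granulocytes and dendritic cells, and their part in the result was not tested. In the Pax5+/- comparison 9 of the 14 were called higher, against 6.27% of all genes, and in the WT comparison 10, against 7.03%.

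**Figure D3:**
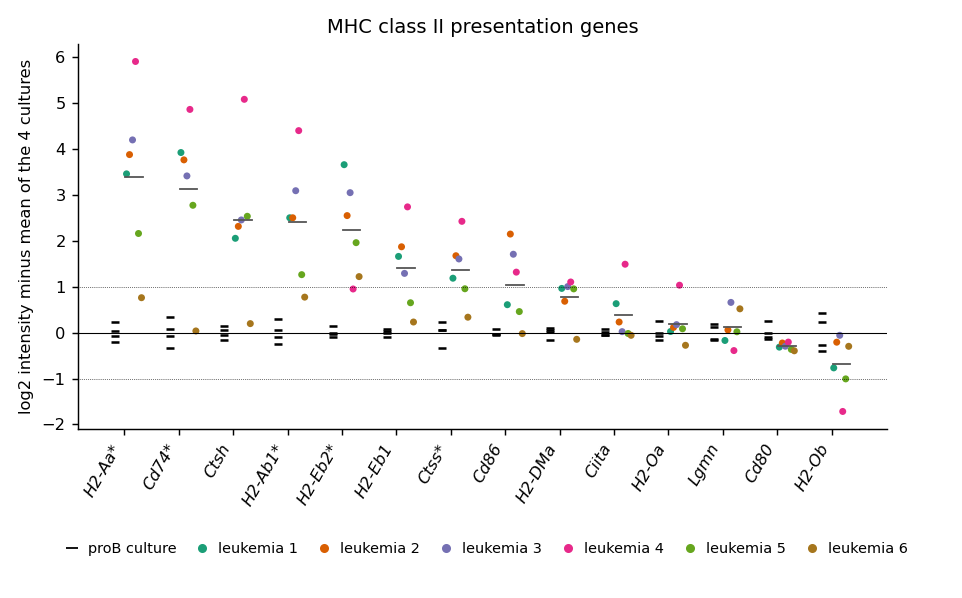
Log2 intensity of 14 genes of MHC class II presentation in each array, relative to the mean of the 4 cultures (black dashes, the cultures; coloured points, leukemias 1 to 6; grey bars, leukemia means; dotted lines, a 2-fold difference; asterisks, called genes). Leukemia 4 is the highest array for H2-Aa (11.43) and Cd74 (12.10), and leukemia 6 lies closest to the cultures.

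The promoter of H2-Aa (chr17:34287824-34288073, minus strand, GRCm38.p6, RefSeq, 250 bases upstream of the start) is shown because it holds the Y box CTGATTGG of class II genes, in capitals, 51 to 44 bases before the start.
H2-Aa: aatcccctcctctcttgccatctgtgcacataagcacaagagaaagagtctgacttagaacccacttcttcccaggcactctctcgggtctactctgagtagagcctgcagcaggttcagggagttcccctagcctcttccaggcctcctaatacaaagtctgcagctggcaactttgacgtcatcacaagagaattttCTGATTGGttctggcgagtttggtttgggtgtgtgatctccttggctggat
The Y box was present in 4 of 9 list members with a promoter (44.4%), namely H2-Aa, H2-Eb1, H2-Eb2 and H2-Oa, of which H2-Aa and H2-Eb2 were called, and in 4.70% of all genes. The letters contain the inverted CCAAT box, which unrelated promoters share, and they were also found in 10 of 25 genes of the amino acid and unfolded protein response (40%) and in 4 of 17 cholesterol genes (23.5%). Among all genes called higher 2.45% had it, and among those called lower 5.45%.

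Of 25 transcription factors of the B lineage, 2 were called higher and 3 lower, against 1.02% of all genes called higher and 0.783% called lower. Spib, an Ets factor that increases in maturing B cells, was at 9.39 to 11.35 in the leukemias, with a median of 9.98, and at 8.07 to 8.48 in the cultures (log2 1.86 ± 0.33 SE, adjusted p = 0.0107). Pou2f2 (Oct-2) rose 2.18-fold (adjusted p = 0.0084), and by less than 2-fold without leukemia 2 (log2 0.97). In both genes each leukemia lay above each culture. Foxo1, which drives Rag expression, was at 8.73 to 9.93 against 10.34 to 10.68 (log2 -1.16 ± 0.21 SE, adjusted p = 0.0115). Ikzf3 (Aiolos) was at 6.64 to 7.87 against 8.11 to 8.35 (log2 -1.09 ± 0.22 SE, adjusted p = 0.0172), a call that was lost without leukemia 1 or 5 or culture 1, 2 or 4 (adjusted p up to 0.0647).

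Lef1, a nuclear partner of beta-catenin in pro-B cells, was at 6.25, 8.4, 7.49, 6.35, 7.11 and 10.22 in leukemias 1 to 6 and at 10.57 to 10.99 in the cultures. Leukemia 6 kept most of the level of the cultures while the others were lower, and the log2 difference was -3.15 ± 0.68 SE (adjusted p = 0.0255). The call of Lef1 was lost without any 1 culture (adjusted p from 0.0629 to 0.0837), with sex as a term and among females alone. Pax5 was at 11.17, 10.47, 11.81, 10.30, 9.07 and 11.95 in leukemias 1 to 6 and at 11.02 to 11.41 in the cultures. Leukemias 3 and 6 were above the cultures and leukemias 2, 4 and 5 below, and the log2 difference of -0.42 ± 0.50 SE did not pass the test (adjusted p = 0.624). Ebf1 reached at most 12.34 in the leukemias, with a median of 11.77, against 12.51 to 12.57, below the cultures in all 6 leukemias (log2 -0.99, adjusted p = 0.174). Tcf3 and Ikzf1 had log2 differences of -0.18 and 0.30, neither of them called.

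Genes that Pax5 is known to activate moved in both directions. Of 28 members measured, 3 were called higher (Spib, Sema4b and Capn2), against 1.02% of all genes, and 6 lower (Lef1, Cplx2, Blnk, Bcar3, Foxo1 and Ikzf3), against 0.783%. The median was -0.05, the same as over all autosomal genes. Blnk, the adaptor that couples the pre-B cell receptor to its downstream kinases, was at 9.61, 8.18, 10.67, 9.19, 9.41 and 9.82 in leukemias 1 to 6 and at 10.90 to 11.45 in the cultures (log2 -1.71 ± 0.38 SE, adjusted p = 0.0285). Cplx2 was at 7.47 to 9.70 against 9.94 to 10.20 (log2 -1.94 ± 0.38 SE, adjusted p = 0.0166). Capn2, a calpain protease, was at 6.86 to 9.74 against 6.58 to 6.83, with leukemia 1 barely above the cultures (adjusted p = 0.037). Several of these calls were lost with 1 array left out: Blnk without leukemia 1 or 5 or any culture (adjusted p up to 0.0929), Cplx2 without culture 1, 2 or 3 (up to 0.0602), Capn2 without leukemia 2, 3 or 5 or any culture (up to 0.109) and Bcar3 without leukemia 1 or culture 1, 2 or 4 (up to 0.0992).

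Of 28 genes that Pax5 is known to repress, 3 were called higher (Fcer1g, Gimap4 and Id2) and 2 lower (Ccl3 and Ccl9). The median was 0.08, and the shares among all genes were 1.02% higher and 0.783% lower. Gimap4, a GTPase of lymphocytes, was at 9.66 to 11.61 in the leukemias and at 7.64 to 8.15 in the cultures (log2 2.59 ± 0.43 SE, adjusted p = 0.00731). Id2 encodes a protein that binds and blocks E proteins. It was at 7.64 to 10.20 against 6.09 to 6.47 (log2 2.51 ± 0.40 SE, adjusted p = 0.00572). Fcer1g, the Fc receptor gamma chain of myeloid and NK cells, was at 9.20, 10.34, 7.14, 10.54, 9.26 and 7 against 5.74 to 6.12 (log2 2.99 ± 0.70 SE, adjusted p = 0.0342). That call was lost without leukemia 1, 2 or 5 or any culture (adjusted p from 0.0504 to 0.102), with sex as a term and among females alone. Leukemias 2 and 4, with the highest Fcer1g, also had the highest mean of monocyte and macrophage markers, and leukemia 6 the lowest of both.

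The pre-B cell receptor list of 20 genes held 2 called higher (Cd22 and Bank1) and 2 lower (Blnk and Vpreb2). Of all genes, 1.02% were called higher and 0.783% lower. Cd22, an inhibitory lectin of the B-cell surface, was at 10.06 to 11.13 in the leukemias, with a median of 10.53, and at 8.31 to 8.59 in the cultures (log2 2.10 ± 0.18 SE, adjusted p = 0.000168). Bank1, a scaffold of the receptor, was at 8.65 to 9.92 against 6.68 to 7.63 (log2 2.08 ± 0.26 SE, adjusted p = 0.00152). Each leukemia lay above each culture for both genes. Vpreb2 of the surrogate light chain was at 8.93 to 10.49 against 10.86 to 11.18 (log2 -1.16 ± 0.28 SE, adjusted p = 0.0396), and its call was lost without leukemia 2, 4 or 5 or any culture (adjusted p up to 0.111).

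The other surrogate light chain genes varied among the leukemias. Igll1 (lambda5) was at 11.51, 8.51, 12.99, 9.56, 11.78 and 12.21 in leukemias 1 to 6 and at 12.77 to 13.15 in the cultures (adjusted p = 0.175). Vpreb1 was at 11.50, 8.61, 11.77, 10.16, 10.79 and 11.52 against 12.31 to 12.77 (log2 -1.82 ± 0.55 SE, adjusted p = 0.0813). Leukemias 2 and 4 were the lowest in both. Vpreb1 and Vpreb2 are near-identical, so their probesets may share signal. Cd79a, the signalling chain of the receptor, was at 10.69 to 12.22 against 12.36 to 12.55, below the cultures in all 6 leukemias (log2 -1.02, adjusted p = 0.0622).

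The same leukemias stood apart in recombination genes. Rag1 was at 11.06, 6.35, 11.23, 6.39, 9.72 and 10.88 in leukemias 1 to 6 and at 11.37 to 11.88 in the cultures. Rag2 was at 9.17, 5.81, 9.74, 5.66, 6.77 and 9.99 against 9.67 to 10.10. Leukemias 2 and 4 were lowest in both genes, leukemia 5 was intermediate, and leukemias 1, 3 and 6 were near the cultures (adjusted p = 0.204 for Rag1 and 0.208 for Rag2). Dntt, the terminal transferase that adds bases at V(D)J joints, was at 11.01, 9.65, 10.23, 7.52, 10.78 and 10.18 against 7.84 to 9.07, above the cultures in every leukemia but leukemia 4 (log2 1.5 ± 0.61 SE, adjusted p = 0.173). None of the 14 recombination genes was called. In bulk samples such as these, fewer cells of a type and less RNA per cell cannot be told apart.

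Among 26 receptors of B-cell stages, Ly86 and Cd22 were called higher and none lower, against 1.02% and 0.783% of all genes. Kit, the receptor of stem cell factor, was at 9.37, 7.58, 10.05, 9.26, 11.39 and 8.83 in leukemias 1 to 6 and at 10.73 to 11.11 in the cultures. Leukemia 5 was above the cultures and the other leukemias below (log2 -1.5 ± 0.58 SE, adjusted p = 0.157). Ly6d, a marker of B-lineage commitment, was high in leukemias 1, 3, 4 and 5 (12.40, 12.34, 12.57 and 11.55) and at or below the cultures in leukemias 2 and 6 (7.73 and 7.14, against 7.45 to 8.26). Among 26 genes of light chain and later B-cell stages, Cd22 and the BAFF receptor Tnfrsf13c were called higher and Bcl6 lower. Tnfrsf13c was at 9.62 to 11.35 against 8.74 to 9.36 (adjusted p = 0.0336) and Bcl6 at 6.17 to 7.54 against 7.39 to 8.03, where leukemia 6 overlapped the cultures (adjusted p = 0.045). The call of Tnfrsf13c was lost without any 1 culture or leukemia 1, 2 or 5 (adjusted p up to 0.103), and that of Bcl6 without any 1 culture or leukemia 1, 2, 3 or 5 (up to 0.146).

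Myd88, the gene with the shared targeted allele, did not pass the test. It was at 8.86, 9.26, 8.70, 9.39, 8.52 and 8.26 in leukemias 1 to 6 and at 8.78, 8.51, 8.69 and 8.59 in the cultures. The ranges overlapped and the difference in means was 0.19 (95% interval from -0.27 to 0.64, two-sided exact permutation p = 0.395). In the groups with both Myd88 alleles intact its mean was 10.13 in Pax5+/- leukemias, 9.28 in Pax5+/- cultures and 9.46 in WT cultures.

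Of 27 genes of Toll-like receptor signaling, 1 was called higher and 1 lower, against 1.02% and 0.783% of all genes. Tlr4, the receptor of lipopolysaccharide, was at 6.57 to 7.52 in the leukemias, with a median of 6.76, and at 8.98 to 9.19 in the cultures (log2 -2.14 ± 0.18 SE, adjusted p = 0.000169). Tirap, the adaptor that bridges that receptor to Myd88, was at 7.18 to 8.33 against 6.24 to 6.54 (log2 1.38 ± 0.18 SE, adjusted p = 0.00228). Every leukemia was below every culture for Tlr4 and above it for Tirap. Traf6 was at 8.82 to 9.77 against a mean of 10.07, below each culture (log2 -0.63, adjusted p = 0.0523), and Nfkbia, the NF-kB inhibitor that NF-kB itself induces, had a log2 difference of 0.54 with overlapping groups (adjusted p = 0.285). Of 25 NF-kB genes Ccl3 alone was called.

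Among 29 immediate-early and AP-1 genes, 2 were called lower, Fosb and Atf3, against 0.783% of all genes. None was called higher, and the median was -0.26. Fosb was at 8.21, 8.74, 7.20, 7.11, 7.24 and 7.39 in leukemias 1 to 6 and at 8.99 to 9.23 in the cultures (log2 -1.45 ± 0.31 SE, adjusted p = 0.0238), and its call was lost without any 1 culture (adjusted p up to 0.0793). Atf3 was at 6.57 to 7.29 against 8.05 to 8.36 (log2 -1.27 ± 0.12 SE, adjusted p = 0.000399). Atf3 fell further than in the WT comparison (difference of the log2 differences -0.95, adjusted p = 0.000416) and than in the Pax5+/- comparison (-0.94, adjusted p = 0.000788), both differences being short of 2-fold.

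The interferon response list of 31 genes had a median of 0.63 with 28 members above 0, and none was called. Its mean over the cultures was 0.50, 0.81, 1.09, 1.11, 0.37 and -0.17 in leukemias 1 to 6, lowest again in leukemia 6. Oas1a was at 7.55 to 8.94 against 7.04 to 7.32 (log2 0.96, adjusted p = 0.0322), just under the fold threshold. In the WT comparison 10 of the 31 were called higher, against 7.03% of all genes, and in the Pax5+/- comparison 9, against 6.27%, with medians of 0.55 and 0.93.

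Genes of the IL7 receptor and JAK-STAT5 pathway (22 genes) held no call. Il7r was at 11.88 to 12.36 in the leukemias and at 12.40 to 12.54 in the cultures, lower in each leukemia by a small amount (log2 -0.34, adjusted p = 0.0804). The targets Cish and Socs2 overlapped between the groups, with log2 differences of 0.38 and 0.09. Jak1 was at 12.62 in leukemia 1 and at 11.26 to 11.77 in the other leukemias, against 11.19 to 11.41 in the cultures. Stat5b was at 11.28 in leukemia 4 and at 9.18 to 9.60 in the other leukemias, all of them below the 9.66 to 9.85 of the cultures, and Stat5a was at 9.77 in leukemia 4 and at 8.85 to 9.18 in the others against 9.45 to 9.61. Leukemia 4 was thus the high array for both of these neighbouring genes.

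The RAS-MAPK list (23 genes) held no call either. Nras had a log2 difference of 0.00 with a 95% interval from -0.14 to 0.14, and Ptpn11 of 0.23 (adjusted p = 0.3). Myc overlapped between the groups with a log2 difference of 0.04 (adjusted p = 0.93). No gene was called among 38 of MYC and ribosome biogenesis (median 0.14), 45 of S phase and mitosis (median -0.18), 24 of glycolysis and hypoxia (median -0.06) or 17 of the Bcl2 family (median -0.14). Bcl2 and Bcl2l1 had log2 differences of -0.39 and -0.40 with overlapping groups.

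Cdkn2a, which encodes the tumor suppressors p16 and p19, was the called member among 28 genes of the cyclin D and Rb-E2F axis. It was at 7.09 to 7.83 in the leukemias and at 8.67 to 8.77 in the cultures, lower in every leukemia (log2 -1.27 ± 0.13 SE, adjusted p = 0.000606). Cdkn2a was lower in sorted than in cultured WT cells too, at -1.90, a difference of the differences of 0.63 (adjusted p = 0.0128). Zmat3, a p53 target, fell (log2 -1.34, adjusted p = 0.00657), as 1 of 18 p53 targets. Cycs (cytochrome c) rose 2.06-fold (adjusted p = 0.0352), as 1 of 41 nuclear genes of oxidative phosphorylation, a call that was lost without leukemia 1, 3 or 5 or culture 1, 2 or 4 (adjusted p up to 0.106).

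In TGF-beta and BMP signaling 3 of 29 genes were called higher and 1 lower, against 1.02% and 0.783% of all genes. Eng (endoglin, a co-receptor) was at 8.70 to 10.16 in the leukemias and at 6.62 to 6.86 in the cultures (log2 2.73 ± 0.30 SE, adjusted p = 0.000734). Bmpr2, a BMP receptor, was at 8.03, 9.69, 7.30, 7.46, 10.17 and 6.42 against 10.85 to 11.24 (log2 -2.86 ± 0.67 SE, adjusted p = 0.0341). Leukemias 2 and 5 kept the most Bmpr2, and its call was lost without leukemia 1, 3 or 4 or any culture (adjusted p from 0.0555 to 0.103). Smad1 rose by log2 1.44 with an overlap (adjusted p = 0.0439, and from 0.0532 to 0.117 without any 1 culture or any leukemia but leukemia 6), and Id2 was the other called gene of the list. Notch2 was at 8.87 to 10.58 against 7.89 to 8.27 (log2 1.58 ± 0.28 SE, adjusted p = 0.00935) and was the called member among 28 Notch genes. Angpt1, a ligand of the Tie2 receptor, was at 6.58 to 8.39 against 5.99 to 6.48 (log2 1.46, adjusted p = 0.0184, and up to 0.0696 without culture 2 or 4), 1 of 24 hematopoietic progenitor genes.

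Markers of other marrow cells had higher means in several leukemias than in the cultures. The 17 monocyte and macrophage markers lay above the mean of the cultures by 0.84, 2.42, 0.42, 2.40, 1.19 and 0.22 on average in leukemias 1 to 6, and their summed linear level was 1940 to 17365 against 1701 to 1792. The 19 granulocyte markers lay above it by 1.18, 0.47, 2.01, 3.42, 0.93 and 0.34, with a summed level of 1810 to 26508 against 1310 to 1449. In each of these lists 1 gene was called, Mrc1 (log2 2.70, adjusted p = 0.0163) and Mmp9 (log2 1.52, adjusted p = 0.0477), and the spread among the leukemias was large. The call of Mrc1 was lost without culture 1, 2 or 4 (adjusted p up to 0.0579) and that of Mmp9 without leukemia 1 or 5 or any culture (up to 0.137).

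Defining genes of these cells, and of platelets, are given in each array. Csf1r was at 9.21, 8.95, 10.03, 12.45, 11.78 and 7.53 in leukemias 1 to 6 and at 6.82 to 6.91 in the cultures. S100a8 was at 9.03, 7.26, 10.79, 12.03, 8.78 and 6.87 against 5.60 to 5.77. Pf4 of platelets was at 6.79, 9.74, 5.40, 5.57, 8.49 and 5.29 against 5.20 to 5.31. Leukemia 4 was highest in Csf1r and S100a8, leukemia 2 in Pf4, and leukemia 6 was closest to the cultures in all 3.

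The 8 platelet genes lay above the mean of the cultures by 1.24, 2.70, 0.02, 0.44, 2.01 and 0.20 on average in leukemias 1 to 6, and the 12 dendritic cell genes by 0.67, 0.03, 0.09, 2.16 and 1.09 in leukemias 1 to 5, with a mean of -0.04 in leukemia 6. Platelet genes were thus highest in leukemia 2 and dendritic cell genes in leukemia 4. Erythroid markers were raised in leukemia 2 (mean 1.35) and stromal markers in leukemia 2 (1.47) and leukemia 5 (0.43). The stromal mean of leukemia 5 includes Il7, which was high in that leukemia alone (10.17). The 10 endothelial genes had a mean of 0.43 to 1.68, with Eng called, and the 10 plasma cell genes of 0.33 to 0.77, with Jchain called. Of 15 T cell markers, Cd5, which early B cells can also carry, was called lower (log2 -1.12 ± 0.13 SE, adjusted p = 0.000857). The 16 NK cell genes, 10 mast cell genes, 12 dendritic cell genes, 8 platelet genes, 10 erythroid genes and 25 stromal genes held no call. With leukemias 2 and 4 left out, 419 autosomal probesets were called, against 406 with all arrays. Leukemias 1, 3, 5 and 6, which were kept, still had granulocyte marker means of 1.18, 2.01, 0.93 and 0.34 over the cultures. This setting therefore did not take out the signal of other cells. How far other marrow cells contribute to each called gene was not tested.

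Of the genes that fell, 4 known products of fibroblasts, chosen after their values were seen, differed between the culture pairs. Ogn was at 9.30, 7.51, 9.25 and 7.73 in cultures 1 to 4, Rspo2 at 8.71, 7.17, 8.56 and 7.05, and Fgf7 at 8.65, 7.25, 8.39 and 7.36. Abi3bp was at 8.53 and 8.41 in cultures 1 and 3 and at 7.30 and 7.25 in cultures 2 and 4. The leukemias were at 5.45 to 8.03 for Ogn, 5.48 to 6.09 for Rspo2, 5.70 to 6.84 for Fgf7 and 5.92 to 6.31 for Abi3bp, and all 4 genes were called lower. The call of Ogn was lost without any 1 culture or any leukemia but leukemia 2 (adjusted p from 0.0532 to 0.126). Of the 25 stromal and feeder markers none was called, 12 had a difference above 0 and the median was -0.03. That list had the same pairing, with means over the 4 cultures of 0.27, -0.21, 0.20 and -0.26, and the part of feeder cells in these falls was not tested.

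**Figure D4:**
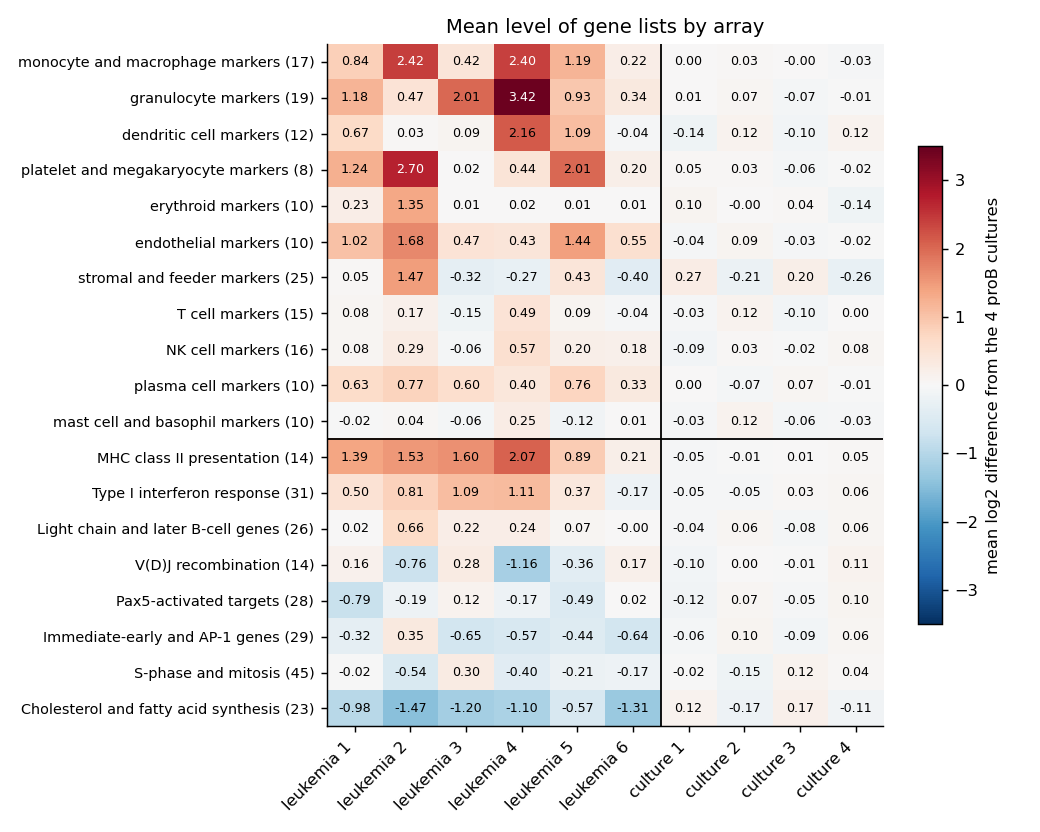
Mean log2 difference from the 4 proB cultures of each gene list (rows, with the number of genes; cell type markers above the line, pathways below) in each array (columns, leukemias 1 to 6 and cultures 1 to 4), with red above and blue below 0. Leukemia 6 lies near the cultures for monocyte (0.22), granulocyte (0.34) and MHC class II genes (0.21), while the cholesterol list is below 0 in all 6 leukemias.

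The genes with the widest spread among the leukemias were at nearly constant levels in the cultures. Kcnma1, a potassium channel, was at 13.76, 6.19, 9.87, 13.79, 14.09 and 13.41 in leukemias 1 to 6 and at 13.91 to 13.99 in the cultures. It was thus near the top of its range in 4 leukemias, intermediate in leukemia 3 and lowest in leukemia 2. Mrgpra1, a G protein-coupled receptor, was at 12.27, 5.71, 6.25, 9.54, 7.30 and 5.33 against 11.41 to 11.72. Only leukemia 1 kept the level of the cultures.

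Other genes of this kind were low in the cultures. Gria2, a glutamate receptor subunit, was at 11.17, 6.16, 5.11, 10.80, 8.62 and 5.41 in leukemias 1 to 6 against 5.22 to 5.40. Rasgrp3, a Ras activator of B cells, was at 11.95, 9.05, 6.64, 7.10, 11.08 and 5.83 against 5.62 to 5.72. Leukemias 1 and 5 were high in Rasgrp3 and leukemias 1 and 4 in Gria2. Siglech, a marker of plasmacytoid dendritic cells, was at 10.63, 7.24, 6.66, 12.34, 11.10 and 6.58 against 6.05 to 6.32. Leukemias 1, 4 and 5, high in Siglech, also had the highest mean of dendritic cell markers (0.67, 2.16 and 1.09). Siglech is itself a member of that list and adds to these means, so the 2 observations are not independent. Ppbp of platelets, Lcn2 and Stfa3 of granulocytes, Ly6d and Rag1 completed the 10 genes of largest SD. Stfa3 was at 11.01 in leukemia 4 alone, against 4.98 to 5.17 in the other leukemias.

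In the 2 parallel comparisons many more probesets were called: 1824 between Pax5+/- leukemias and Pax5+/- cultures (8.17%) and 2345 between sorted and cultured WT cells (10.5%). The cultures of both comparisons paired by the same numbers, 1 with 3 and 2 with 4. In WT cultures r was 0.9982 and 0.9979 within the pairs, and 0.9906 to 0.9912 across them. In Pax5+/- cultures it was 0.9965 and 0.9976 within, and 0.9913 to 0.9951 across. Each array was counted as a sample here and in the tests of difference below. Averaging these pairs was not tried. Of the 234 probesets called higher in Pax5+/-;Myd88+/- leukemias, 176 (75.2%) were called higher in the Pax5+/- comparison and 127 (54.3%) in the WT comparison, where 6.24% and 6.96% of all autosomal probesets were called higher. Of the 172 called lower, 95 (55.2%) and 71 (41.3%) were called lower there, against 1.93% and 3.55% of all. The sign was shared by 95.7% of the probesets called higher and 91.3% of those called lower in the Pax5+/- comparison, where it was shared by 71.8% of all autosomal probesets, and by 86.3% and 82.6% in the WT comparison, with 62.1% of all.

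Ly86 illustrates the overlap, with a log2 difference of 6.66 in the Pax5+/- comparison and 5.93 in the WT comparison, and the test of neither difference from its 6.09 passed (adjusted p = 0.146 and 0.683). Clgn was at -2.82 and -4.29, Sestd1 at -3.26 and -2.79, Tet1 at 2.68 and 3.02 and Cd22 at 2.15 and 2.10. For these genes fresh leukemic cells of either genotype and fresh healthy precursors lay on the same side of the cultures.

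**Figure D5:**
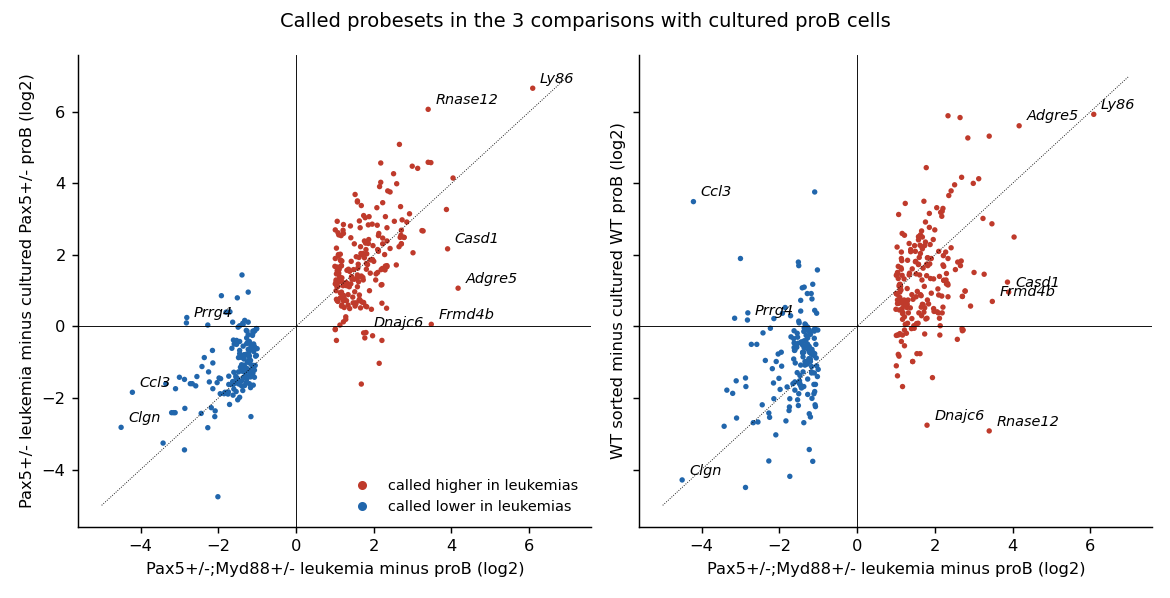
Log2 differences of the called probesets that name 1 gene: leukemia minus culture of Pax5+/-;Myd88+/- mice (x axes) against leukemia minus culture of Pax5+/- mice (left) and against sorted minus cultured WT cells (right), with red for probesets called higher, blue for those called lower and a dotted line of equal difference. Ly86 lies near the line in both panels, whereas Frmd4b (0.06 in the Pax5+/- comparison) and Ccl3 (3.49 in the WT comparison) lie far from it.

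The difference between this contrast and the WT comparison was itself tested, and 1961 probesets were called (8.78%), 738 higher (3.31%) and 1223 lower (5.48%). Genotype differs between the 2 pairs of groups as well and cannot be told apart from the rest. From the sex-linked probesets all sorted WT samples were female and all WT cultures male. Sex therefore cannot be told apart from sorting against culture within the WT groups. With sex as a term 1801 probesets were called, 476 higher and 1325 lower. In that fit only the leukemias hold both sexes, so the sex term rests on them. Among the genes with the largest negative difference, Ccl3 (-7.70), Rgs2 (-5.08), Cpm (-5.05), Slc15a2 (-4.89), Ikzf3 (-4.85), Slamf6 (-4.73), Fcrla (-4.50) and Lgr5 (-4.42) had higher means in sorted than in cultured WT cells. Ccl3 and Ikzf3 rose by 3.49 and 3.76 in that comparison and fell in the Pax5+/-;Myd88+/- mice. The largest positive differences were those of Rnase12 (6.32), Zfp760 (5.19), Dnajc6 (4.56), Grb10 (3.74), Sympk (3.70), Gbp7 (3.68), Zfp709 (3.37) and Mt2 (3.32), all lower in sorted than in cultured WT cells. The sorted WT samples also carried markers of other cells. Called higher there were 11 of 16 NK cell, 11 of 19 granulocyte and 7 of 12 dendritic cell markers, against 7.03% of all genes. Their medians were 2.42, 1.62 and 1.59. Of 17 monocyte and macrophage markers 2 were called higher, with a median of 0.05. The part of such cells in the differences from the WT comparison was not tested.

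Against the Pax5+/- comparison 842 probesets were called (3.77%), 236 higher (1.06%) and 606 lower (2.71%). The largest negative differences were those of Slamf6 (-4.32), Wfdc17 (-3.90), Cd44 (-3.19), Mmp13 (-3.06), Cd48 (-2.92), Prrg4 (-2.92), Lpcat2 (-2.83) and Ly6e (-2.81). Several of them started from different levels in the cultures: Slamf6 was at 9.45 to 9.95 in Pax5+/-;Myd88+/- cultures and at a mean of 6.15 in Pax5+/- cultures, while the leukemias had means of 10.17 and 10.93. Cd44, an adhesion receptor, was at 8.85 to 9.19 and a mean of 6.22 in the same cultures. The largest positive differences were those of Dntt (4.82), Pgr (4.06), Zfp760 (3.70), Zfp979 (3.52), Frmd4b (3.42), Tgfb3 (3.41), Zfp507 (3.30) and Fut11 (3.25). Dntt was at a mean of 10.70 in Pax5+/- cultures and 7.38 in Pax5+/- leukemias, the reverse of its order here (adjusted p = 0.00523).

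A set of 25 probesets was called in this contrast and changed further in the same direction than in either of the others. Those that rose included Casd1, Frmd4b, Cul7, Dnajc6, Zfp709 and 4 probesets of Syne2, a nuclear envelope protein, with log2 differences of 1.74 to 2.21 for Syne2. The call of Dnajc6 was lost without leukemia 1, 2, 3 or 5 or any culture (adjusted p up to 0.127). Those that fell included Ccl3, Prrg4, Mmp13 (collagenase 3), Gng4, a G protein subunit, and a probeset of Fdft1. Prrg4 was at 6.01 to 8.23 in the leukemias and at 9.63 to 10.11 in the cultures (log2 -2.82 ± 0.33 SE, adjusted p = 0.00116), against 0.10 in the Pax5+/- comparison and 0.18 in the WT comparison. Mmp13 was at 6.58 to 8.65 against 10.10 to 10.69 (log2 -2.81 ± 0.41 SE, adjusted p = 0.0037), against 0.25 and 0.38. Gng4 was at 7.20 to 7.61 against 9.45 to 10.27 (log2 -2.36 ± 0.16 SE), against -0.87 and -0.95.

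Small nucleolar RNA probesets were not part of any list and were examined after their values were seen. The 53 autosomal ones had a median of 0.45 here with 3 called, against 1.82% of all autosomal probesets. Their median was -0.46 with 25 called in the Pax5+/- comparison, against 8.17%, and -0.98 with 26 called in the WT comparison, against 10.5%. The difference between the comparisons was not tested for the class.

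Promoter motifs were counted as a description, with no test. In the 250 bases upstream of the start, AP-1 sites (TGACTCA, both strands) were found in 4.29% of 163 genes called higher, 2.73% of 110 called lower and 3.92% of all 15008. EBF1 sites (CCCNNGGGA) were found in 7.36%, 7.27% and 6.18%, RUNX sites (TGTGGTTT) in 2.45%, 2.73% and 1.30%, and the E-box in 7.36%, 6.36% and 7.03%. The interferon-stimulated response element (GAAANNGAA) was found in 8.59%, 6.36% and 6.86%, and in 9 of 22 genes of the interferon list (40.9%). The amino acid response element TTGCATCA was found in 2.45%, 0.909% and 0.613%, and in 3 of 25 genes of the amino acid list (12%). This element, the sterol element and the Y box were added after the lists that moved were known.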

How the data were processed

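RNA of 32 samples was hybridised to Affymetrix MoGene 1.0 ST arrays, and 10 of these arrays form the comparison. The authors deposited log2 values per probeset, background-corrected, normalized and summarised by RMA in the Transcriptome Analysis Console, and these were used as they stand; array values carry no read depth, so the number of arrays limits the precision. The labels call the arrays of a group biological replicates. Groups were compared with limma 3.58.1 in R 4.3.3 (lmFit and eBayes on the 10 arrays), with Benjamini-Hochberg adjustment over all 28944 probesets, and calls needed both an adjusted p below 0.05 and more than 1 log2 unit between the means. A gene was read from its brightest probeset that names it alone. Differences between comparisons were interaction terms, fitted to 18 arrays with the WT groups and to 20 with the Pax5+/- groups. Lists hold 840 of 906 listed genes and are described by counts and medians. Promoters were matched to RefSeq by gene symbol. Scripts were tested on simulated data.

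The members and lists were chosen with earlier results of these data known. The genes named are, among called genes whose groups do not overlap, the 12 that rose most and the 12 that fell most, up to 4 called genes of each list, a fixed set of lineage and signaling genes, the 10 with the largest SD among leukemias and the 8 largest differences in each direction from each other comparison. Small RNA, histone, receptor-segment, ribosomal protein and unnamed genes were left out of the ranked choices. Genes named outside this rule were chosen after their values were seen, among them Cd180, Srebf1, Srebf2, Idi1, Lss, Fdft1, Cyp51, Stard4, H2-Eb1, H2-Oa, Ciita, Oas1a, Ogn, Rspo2, Fgf7, Abi3bp, Csf1r, S100a8, Pf4, Il7, Syne2, Gng4 and Cul7. Some genes of the fixed set are not reported here. Alternatives were other normalizations, filters, variance models, tests, sex, blocks and arrays left out.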

Additional observations from a re-analysis of the deposited data

Results flagged for a closer look

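In 15 of 290 groups of arrays examined over the named genes, 1 array lay far from the others of its group relative to the range of that group, and chance marks about 1 in 20 groups. The number found is close to that share. Some of the genes were also chosen for a wide spread among the leukemias or after their values were seen. The arrays are therefore listed as a description. Leukemia 4 was the lone array for Stfa3 (11.01, the others 4.98 to 5.17), Stat5b (11.28, the others 9.18 to 9.60), Stat5a (9.77), Mmp9 (9.65), H2-Oa (8.75) and Nras, where it was low at 9.83. Leukemia 2 was the lone array for Mt2 (11.14, the others 7.07 to 8.4), Zfp760 (6.22, the others 9.37 to 11.20), Ogn (8.03), Asns (7.62) and Abi3bp (6.31). Leukemia 1 was highest for Clgn (6.72), leukemia 5 for Il7 (10.17) and leukemia 6 for Lgr5 (7.27, the others 5.46 to 5.63). Culture 2 was highest for Zfp979 (4.55).

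The change from culture to leukemia was compared between Pax5+/-;Myd88+/- and Pax5+/- mice by an interaction term in limma, and for 29 named genes it differed at an adjusted p below 0.05 and by more than 2-fold. It was more positive in the Pax5+/-;Myd88+/- groups, in log2 units, for Dntt (4.82), Pgr (4.06), Zfp760 (3.70), Zfp979 (3.52), Frmd4b (3.42), Tgfb3 (3.41), Zfp507 (3.30), Fut11 (3.25), Syne2 (3.17), Adgre5 (3.10), Dnajc6 (1.97), Casd1 (1.73), Zfp709 (1.46), Vpreb2 (1.36) and Cul7 (1.06). It was more negative for Slamf6 (-4.32), Wfdc17 (-3.90), Cd44 (-3.19), Mmp13 (-3.06), Cd48 (-2.92), Prrg4 (-2.92), Lpcat2 (-2.83), Ly6e (-2.81), Ccl3 (-2.37), Mmp9 (-2.17), Id2 (-1.76), Gng4 (-1.49), Cycs (-1.14) and Tlr4 (-1.12). The cultures of the genotypes also differ in sex, female with the targeted Myd88 allele and male without it. The part of sex in these differences was not tested gene by gene. Some of the genes also started from different levels in the cultures, as given above for Slamf6, Cd44 and Dntt. The Myd88 allele, sex and other differences between the cultures cannot be told apart here.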

How the results depend on the processing

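Of the 406 called probesets in the comparison of leukemias with cultures, the count was 635 (416 higher) with all 7 groups in 1 fit, 670 (438 higher) at an unadjusted p, and 140 (72 higher and 68 lower) with the culture pairs averaged. Leaving out each array in turn gave 289 to 537 calls (161 to 339 higher, 128 to 198 lower), the most without leukemia 6 and 289 to 320 without any 1 culture. The count of cholesterol and fatty acid genes called lower (9) was 15 with sex as a term, 15 among female arrays, 3 with the culture pairs averaged, 6 with the methods' t-test and 6 to 14 with an array left out. The count of MHC class II genes called higher (5) was 8 with all groups in 1 fit, 2 with limma-trend and robust moderation and 0 with the methods' t-test, with sex as a term, among female arrays or with the culture pairs averaged, and 0 to 8 with an array left out. The difference in Myd88 was 0.08 to 0.3 with an array left out. The difference from the WT comparison gave 1800 to 2088 calls (659 to 805 higher, 1119 to 1283 lower) and that from the Pax5+/- comparison 734 to 917 (217 to 243 higher, 509 to 687 lower) with an array left out. With sex as a term the 738 probesets higher than in the WT comparison became 476. The cause of these shifts was not tested. The other alternatives moved these counts by at most 1.5 times.

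The replicate numbers did not pair the arrays (correlations of deviations 0.02, 0.13, 0.26 and -0.08 for numbers 1 to 4), and not every array correlated best with its own number. With the replicate block, 389 probesets were called, and 1904 and 874 in the differences from the WT and Pax5+/- comparisons. Of 81 called genes named here, 29 kept their call under every alternative and 49 with any array left out; of 3477 values under alternatives none reversed its direction with a call. Smad1, Rnase12, Ogn, Cd74, Jchain and Dnajc6 lost their calls most often, in 14 or 15 alternatives each.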

Other observations

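Il7, the cytokine given to the cultures, was at 10.17 in leukemia 5 and at 4.68 to 5.08 in the other leukemias, with 4.77 to 4.94 in the cultures. It is a member of the stromal and feeder list, so its own value is part of the mean of that list in leukemia 5 (0.43). The list mean was 1.47 in leukemia 2. The single high array was seen after the values were known, and no comparison between groups rests on it.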
